A study of Mus musculus with 31 samples.

Results

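The 10 neuropeptide genes Sst, Npy, Vip, Cck, Penk, Pdyn, Tac1, Crh, Nts and Cartpt were followed through the basolateral amygdala (BLA) of 31 mice. They were found by gene symbol among the 48709 genes counted in each mouse, and 10 of 10 passed the filter on low counts that left 17428 genes. Of the mice, 16 were WT and 15 carried a bacterial artificial chromosome with human CYFIP1 (CYFIP1 OE), an actin and translation regulator duplicated in Dup15q syndrome. Both groups were C57BL/6N mice of the transgenic lines labelled 1 and 3. The authors derived their lines from founders of a pronuclear injection. None of the lines they describe bears the label 3, and that label was not matched to them here. Line 1 held 8 WT mice, 4 male and 4 female, aged 59 to 61 days, and 7 CYFIP1 OE mice, 3 male and 4 female, aged 59 to 77 days. Line 3 held 8 WT mice aged 58 to 60 days and 8 CYFIP1 OE mice aged 58 to 64 days, each with 4 males and 4 females. A punch of the BLA was taken from each side and the sides of a mouse were pooled, so each mouse is 1 sample. RNA was sequenced by QuantSeq, which reads the 3′ end of each transcript, and levels are given in CPM, read counts scaled to a common library size, which with this method need no division by transcript length.

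Neuropeptides are made as larger precursors, cut in the secretory pathway, stored in dense-core granules and released to act on G protein-coupled receptors. In the amygdala they mark classes of neurons. Somatostatin (Sst), neuropeptide Y (Npy) and vasoactive intestinal peptide (Vip) are known from GABAergic interneurons, and cholecystokinin (Cck) from both interneurons and glutamatergic projection neurons. Proenkephalin (Penk), prodynorphin (Pdyn) and tachykinin 1 (Tac1, the precursor of substance P) are abundant in projection neurons of the striatum, which borders the amygdala. Corticotropin-releasing hormone (Crh), neurotensin (Nts) and, in subsets, Cartpt, the precursor of the CART peptides, are known from the central amygdala and nearby nuclei.

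Several of these genes are classic targets of cyclic AMP signalling, so their promoters were searched for the letters TGACG on either strand, the core of the cyclic AMP response element. The matching stretches are shown for the genes in which the letters were found, 1 stretch per gene, and they are given 5′ to 3′ on the gene's strand with the match in capitals. The palindrome TGACGTCA contains TGACG on both strands, so it counts as a match to each.
Sst, GRCm38.p6, minus strand, chr16:23890867-23890907: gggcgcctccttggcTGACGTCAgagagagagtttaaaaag
Cartpt, GRCm38.p6, minus strand, chr13:99900770-99900810: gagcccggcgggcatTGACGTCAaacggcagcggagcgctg
Vip, GRCm38.p6, plus strand, chr10:5639121-5639161: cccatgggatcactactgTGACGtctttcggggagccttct
Tac1, GRCm38.p6, plus strand, chr6:7555000-7555040: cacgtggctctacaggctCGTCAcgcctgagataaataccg
Cck, GRCm38.p6, minus strand, chr9:121495719-121495759: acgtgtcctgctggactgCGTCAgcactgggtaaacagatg
Nts, GRCm38.p6, minus strand, chr10:102490562-102490602: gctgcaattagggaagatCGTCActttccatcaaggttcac

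These sequences come from the RefSeq promoter table, which holds 250 bases before and 50 bases after a gene's start and lists 8 of the 10 genes, without Penk and Crh. The letters TGACG stood in the promoters of 6 of the 8 genes (75%), against 23% of 27025 genes, and Npy and Pdyn had no match in this window. Tac1 had 2 separate matches, of which the one nearest the start is shown. The whole palindrome stood in 2 of the 8, Sst and Cartpt, against 2.03% of genes. A match describes the letters only.

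Between 5286925 and 8685521 reads were counted in a mouse (median 7387798). A CYFIP1 OE male of the line labelled 3 had a connectivity Z-score of −4.74, the only value under −2. Mouse Cyfip1 had 33.5 ± 4.48 CPM (SD, n = 16) in WT and 33.0 ± 3.66 CPM (SD, n = 15) in CYFIP1 OE mice, a log2 fold change of −0.02 (SE 0.08, edgeR adjusted p = 0.999). The transgene is the human gene, so this value does not check the genotype labels. The content of the punches varied widely. Slc17a7, the vesicular glutamate transporter of BLA and cortical excitatory neurons, ranged from 3.01 to 1110 CPM over the 31 mice with a median of 196 CPM. The summed level of the 4 excitatory markers (Slc17a7, Neurod2, Neurod6, Rspo2) ranged from 5.67 to 1340 CPM, and Rspo2 was at 0 in 1 mouse. The summed level of the 7 striatal projection neuron markers, among them Drd1, Drd2 and Adora2a, ranged from 57.2 to 2020 CPM, with Drd2 listed at 0 in 20 of 31 mice. Drd1, the dopamine receptor of direct-pathway striatal neurons, was at a median of 167 CPM. Reads of the excitatory neuron markers were thus found in every mouse together with markers of the neighbouring striatum, at levels that differed between mice. In a WT male of the line labelled 1 the excitatory signal was slight, at 5.67 CPM summed beside 1070 CPM of the striatal markers. In pooled tissue, fewer cells of a type and less RNA per cell cannot be told apart.

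Penk had the highest level of the 10 genes. Its precursor gives the enkephalins, which act on mu and delta opioid receptors. It ranged from 65.0 to 1930 CPM with a median of 1190 CPM over the 31 mice, and by mean level it was the gene at rank 40 of the 17428 tested. Penk lay above Cck in 29 of 31 mice, by 2.59 on the log2 scale on average (SD 2.09; sign-flip permutation test, two-sided, adjusted p = 4.5e-05 over 9 neighbouring pairs). The gene overlaps A830012C17Rik on the opposite strand, and QuantSeq Forward reads keep the strand, although whether the counting used it is not given in the sources used here.

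Cck and Tac1 followed. Cck ranged from 22.0 to 456 CPM with a median of 204 CPM. Tac1 ranged from 13.3 to 338 CPM with a median of 162 CPM. The order of these neighbours was not resolved, since Cck was above Tac1 in 19 of 31 mice with a mean log2 difference of 0.13 (SD 2.01, permutation adjusted p = 0.802).

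Sst, Pdyn and Npy formed the next tier. Sst, a peptide of dendrite-targeting interneurons, ranged from 47.1 to 150 CPM (median 93.8). Pdyn, the precursor of the dynorphins that act on the kappa opioid receptor, ranged from 6.99 to 128 CPM (median 86.6). Npy ranged from 23.7 to 93.2 CPM (median 54.2). Tac1 was above Sst by 0.70 on the log2 scale (SD 1.24, permutation adjusted p = 0.0076), whereas neither Sst and Pdyn nor Pdyn and Npy differed beyond their spread (permutation adjusted p = 0.119 for each).

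The other 4 genes were lower. Nts ranged from 4.87 to 42.7 CPM (median 12.2) and lay below Npy by 2.11 on the log2 scale (SD 0.89, permutation adjusted p = 4.5e-05). Crh ranged from 2.52 to 33.4 CPM (median 8.92). It lay below Nts by 0.46 (SD 0.66, permutation adjusted p = 0.000787). Vip ranged from 0.626 to 13.6 CPM (median 3.52) and lay below Crh by 1.16 (SD 1.5, permutation adjusted p = 0.00042). Cartpt ranged from 0.296 to 27.2 CPM (median 3.88) and was not resolved from Vip (mean log2 difference 0.06, SD 1.49, permutation adjusted p = 0.834). The tests of this order set a difference in CPM against its spread over mice. Whether transcripts of different genes were captured equally was not tested.

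**Figure D1:**
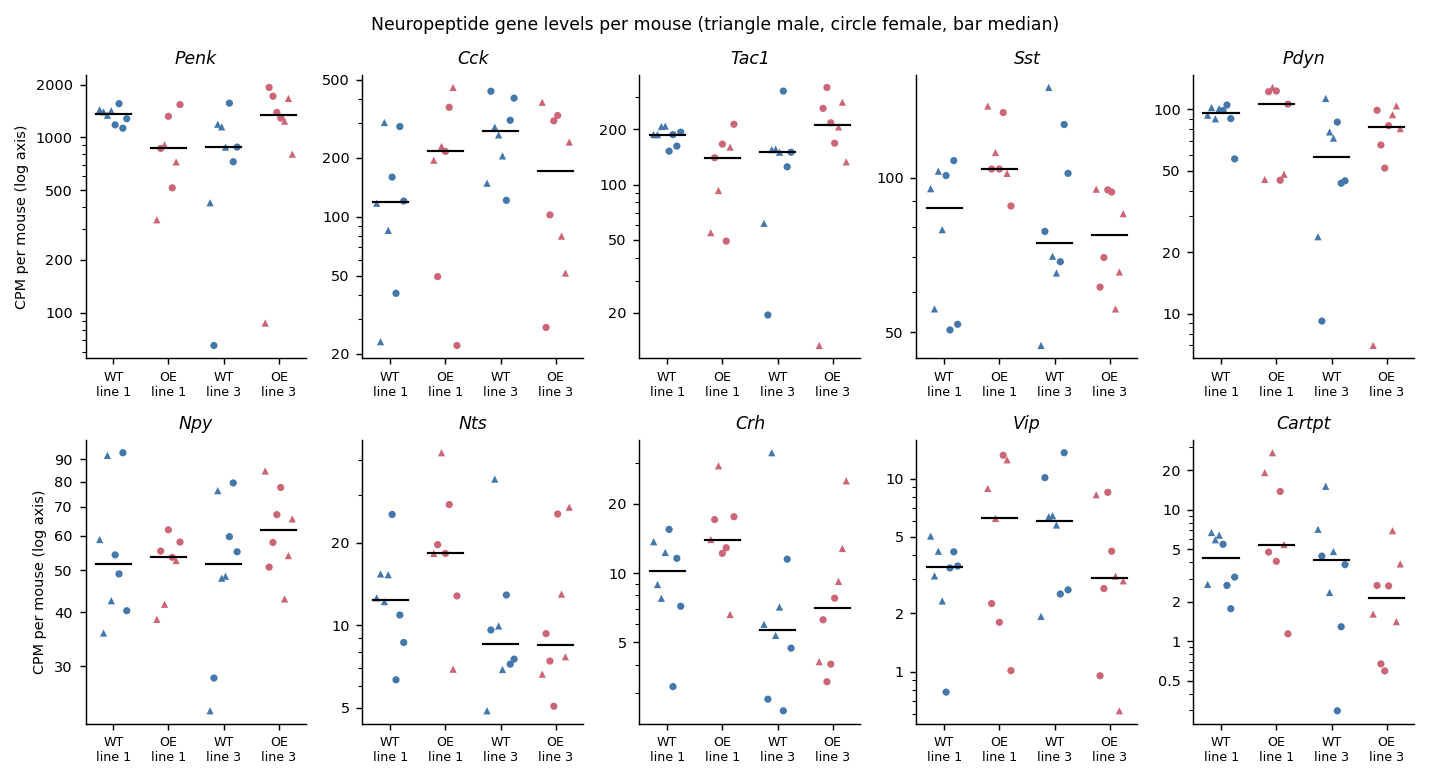
CPM of each gene per mouse on a log axis, in WT and CYFIP1 OE mice of the lines labelled 1 and 3, with triangles for males, circles for females and a bar at the median of each group. The genes run from Penk, between 65.0 and 1930 CPM, down to Cartpt, between 0.296 and 27.2 CPM, and the genotypes overlap in each panel.

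The 10 genes differed in how much they varied between mice. The biological coefficient of variation, which is the spread left after counting error, sex, line and genotype, was lowest for Sst (29.5%) and Npy (30.1%), 1.21 and 1.24 times the value of the trend at their expression level. It was highest for Cck at 70.4%, against 25.0% on the trend, a ratio of 2.82. Tac1, Penk and Pdyn had ratios of 2.23, 2.18 and 2.06. By this ratio Cck stood at the 99.4th percentile of the 17428 genes, and Sst at the 86.4th, with the other 8 between them. In raw range, the highest mouse exceeded the lowest 29.7-fold for Penk, 25.5-fold for Tac1 and 20.7-fold for Cck, and 3.18-fold for Sst. The lowest Cartpt value rests on few reads, so its 92.0-fold range includes counting error.

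Which peptides varied together was tested over the 45 pairs of genes with Pearson's r of log2 CPM across the 31 mice. In all, 20 of 45 pairs passed an adjusted p of 0.05 by permutation, 14 with a positive and 6 with a negative r, from −0.50 to 0.96. Among all pairs of the genes with a mean of at least 5 CPM, 10% had an absolute r of at least 0.43, the smallest called here, and 5.42% a positive r of that size. Both values of a pair come from the same libraries and so share their totals and the content of the punch.

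Penk, Tac1 and Pdyn formed the tightest group. In the WT mouse of the line labelled 3 with the lowest Penk, the levels were 65.0 CPM for Penk, 19.5 CPM for Tac1 and 9.20 CPM for Pdyn. The CYFIP1 OE mouse with the Z-score of −4.74 had 87.3, 13.3 and 6.99 CPM. The mouse with the highest Penk, a CYFIP1 OE female of the line labelled 3, had 1930, 260 and 98.9 CPM. Penk and Tac1 had r = 0.96 and rho = 0.93 (permutation p = 1e-05 for each, the smallest that 100000 resamples give; adjusted p = 0.00015 and 0.000225), and r = 0.91 without the mice farthest from the median. Their r was 0.90 in the line labelled 1 and 0.98 in the line labelled 3. Penk and Pdyn had r = 0.90 and rho = 0.58 (permutation p = 1e-05 and 0.00084, or 0.00015 and 0.0063 after adjustment), with r = 0.70 and 0.94 in the lines. Pdyn and Tac1 had r = 0.82 and rho = 0.42 (permutation p = 2e-05 and 0.0213, or 0.000225 and 0.0399 after adjustment), with r = 0.53 and 0.93 in the lines.

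The relation of Pdyn with the other members of this group rests in part on 2 mice under 100 CPM of Penk. Without them, a choice made after seeing the data, r was 0.67 for Penk with Pdyn, 0.50 for Pdyn with Tac1 and 0.91 for Penk with Tac1. The summed striatal markers moved with the group. They correlated with Tac1 at r = 0.97, with Penk at r = 0.94 and with Pdyn at r = 0.77, each with a permutation adjusted p of at most 0.000367 over 110 tests of a gene with a marker list. By rank the relation with Pdyn was weaker (rho = 0.38, permutation adjusted p = 0.0917). After the striatal marker level had been regressed out, r remained 0.77 for Penk with Pdyn, 0.59 for Penk with Tac1 and 0.47 for Pdyn with Tac1. Among the 10955 genes outside the 10 with a mean of at least 5 CPM, 200 had an r of at least 0.8 with Tac1 and 144 with Penk. Among the genes most alike to Tac1 were Drd1 (r = 0.97) and the sodium channel subunit Scn4b (r = 0.97). For Penk the 3 most alike were Meis2 (r = 0.98), Scn4b (r = 0.96) and Slc35d3 (r = 0.96). For Pdyn they were Sv2c (r = 0.93), a synaptic vesicle protein, Gpr83 (r = 0.90) and Meis2 (r = 0.88).

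Cck varied with the excitatory neuron markers and, more loosely, against the striatal ones. Its lowest value of 22.0 CPM, in a CYFIP1 OE female of the line labelled 1, came with 29.2 CPM of the summed excitatory markers. Its highest value of 456 CPM, in a CYFIP1 OE male of the same line, came with 535 CPM. Over the 31 mice r between Cck and these markers was 0.96 and rho 0.98 (permutation p = 1e-05 and adjusted p = 0.000183 for each), with r = 0.96 in each line. With the striatal markers r was −0.48 and rho −0.57 (permutation adjusted p = 0.0211 and 0.0066). Without the 2 mice under 100 CPM of Penk this r was −0.40 and did not pass (permutation adjusted p = 0.0782). The genes most alike to Cck were Slc17a7, Pgm2l1 and Bdnf, the brain-derived neurotrophic factor, each with r = 0.95.

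Vip and Sst joined Cck. Cck and Vip had r = 0.67 and rho = 0.68 (permutation p = 6e-05 for each; adjusted p = 0.00054 and 0.0009), and r = 0.58 and 0.81 in the lines labelled 1 and 3. Cck and Sst had r = 0.55 and rho = 0.53 (permutation p = 0.00155 and 0.00264, or 0.00906 and 0.0115 after adjustment). Sst and Vip had r = 0.43, the weakest of the called pairs. Vip correlated with the excitatory markers at r = 0.59 and Sst at r = 0.50, although both genes are best known from interneurons. Of the interneuron markers, the summed Lhx6, Sox6 and Pvalb level of interneurons from the medial ganglionic eminence had an r of −0.53 with Sst. The summed Adarb2, Htr3a and Prox1 level of those from the caudal ganglionic eminence had an r of −0.04 with Vip. Each sum weighs 1 gene most. By median level Prox1 had 31.2 CPM, against 8.25 for Adarb2 and 1.24 for Htr3a, which was at 0 in 4 mice. Pvalb had 30.8 CPM, against 13.4 for Sox6 and 5.75 for Lhx6. The genes most alike to Vip were Sidt1 (r = 0.79) and the cortical transcription factors Fezf2 (r = 0.78) and Bhlhe22 (r = 0.77). Those most alike to Sst were Ldha, lactate dehydrogenase A (r = 0.83), Tsc22d1 (r = 0.81) and Spock2 (r = 0.79).

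The 6 negative pairs by Pearson's r were those of Cck and of Vip with Penk, Pdyn and Tac1. Cck with Penk had r = −0.49 and rho = −0.64 (permutation p = 0.00639 and 0.00016, or 0.0171 and 0.0018 after adjustment), with r = −0.49 and −0.54 in the lines. Across the 6 pairs r ranged from −0.50 to −0.47. With the striatal marker level regressed out, the same 6 had r between −0.20 and −0.01 and none passed, with permutation adjusted p from 0.473 to 0.981. Of the 20 called pairs, 13 passed after this regression and 7 did not, the other being Sst with Vip (r = 0.37, permutation adjusted p = 0.0932). The regression also brought in 6 pairs not called before. Cartpt went from r = 0.07 to 0.72 with Pdyn and from −0.22 to 0.60 with Penk. Npy went from 0.28 to 0.52 with Cck and from 0.22 to −0.43 with Tac1, and Penk reached 0.49 with Nts and 0.44 with Crh. By rank, 4 further negative pairs passed, Npy with Cartpt (rho = −0.50, permutation adjusted p = 0.016), Tac1 with Cartpt (−0.47), Penk with Cartpt (−0.42) and Sst with Tac1 (−0.42). Without the 2 mice under 100 CPM of Penk, r of Cartpt was −0.69 with Tac1 and −0.55 with Penk, and both passed. Of the 6 negative pairs, Vip with Pdyn (r = −0.41, permutation adjusted p = 0.0591) and Cck with Tac1 (r = −0.40, permutation adjusted p = 0.0651) did not pass without these mice.

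Crh, Nts and Cartpt made another group, with Sst at its edge. Crh acts on Crhr1 and Crhr2 in the stress response, and Nts on the neurotensin receptors. The WT male of the line labelled 3 with the highest Crh had 33.4 CPM of Crh, 34.2 CPM of Nts and 15.1 CPM of Cartpt. A CYFIP1 OE male of the line labelled 1 had 29.3, 42.7 and 27.2 CPM, the highest Nts and Cartpt of the 31 mice. Crh and Nts had r = 0.73 and rho = 0.73 (permutation p = 1e-05 for each; adjusted p = 0.00015 and 0.000225), and r = 0.83 and 0.61 in the lines. Nts and Cartpt had r = 0.57 and rho = 0.47 (permutation p = 0.00112 and 0.00818, or 0.0084 and 0.0204 after adjustment). Crh and Cartpt had r = 0.55 and rho = 0.45 (permutation p = 0.00161 and 0.0119, or 0.00906 and 0.0269 after adjustment). For this pair r was 0.35 and 0.56 in the lines, and 0.38 after sex, line and genotype had been regressed out. Sst correlated with both Crh and Nts at r = 0.50, and Pdyn at r = 0.49 and 0.44. Without the 2 mice under 100 CPM of Penk, Pdyn with Crh had r = 0.36 and did not pass (permutation adjusted p = 0.0957), and Pdyn with Nts had r = 0.49. After sex, line and genotype had been regressed out, r was 0.44 for Pdyn with Crh and 0.36 for Pdyn with Nts.

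The summed central amygdala markers (Prkcd, Wfs1, Tac2), between 26.7 and 268 CPM, moved with this group. The sum weighs Wfs1 most, which had a median of 109 CPM where the sum had a median of 126 CPM. The relations with Prkcd and Tac2 alone were not tested. The r of the sum was 0.65 with Crh, 0.61 with Cartpt, 0.56 with Nts and 0.62 with Pdyn, each with a permutation adjusted p of at most 0.00706. With Crh it was 0.38 in the line labelled 1 and 0.69 in the line labelled 3. In the same order, r was 0.52 and 0.59 with Cartpt, 0.64 and 0.43 with Nts, and 0.41 and 0.62 with Pdyn. Without the 2 mice under 100 CPM of Penk, the r with Pdyn was 0.28 (permutation adjusted p = 0.258) and those with Crh, Cartpt and Nts were 0.59, 0.70 and 0.56. The genes most alike to Crh were the purinergic receptor P2ry1 (r = 0.70) and the imprinted, retrotransposon-derived genes Peg10 (r = 0.69) and Rtl1 (r = 0.67). For Nts they were Tmem35a (r = 0.73), Zdbf2 (r = 0.69), also imprinted, and Gm13889 (r = 0.69). For Cartpt they were AW551984 (r = 0.82), Blcap (r = 0.79) and Hap1 (r = 0.79). No gene outside the 10 had an r of at least 0.8 with Crh or Nts, so these neighbours are looser than those of Penk or Cck.

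Npy had 1 called pair by Pearson's r, that with Sst (r = 0.52, rho = 0.47, permutation adjusted p = 0.0103 and 0.0197). This relation differed in value between genotypes, with r = 0.74 in WT and −0.04 in CYFIP1 OE mice, and that difference was not tested. In WT mice Npy ranged from 23.7 to 93.2 CPM and Sst from 47.1 to 150 CPM. In CYFIP1 OE mice the ranges were narrower, 38.5 to 84.6 CPM for Npy and 55.5 to 138 CPM for Sst. Npy correlated negatively with the astrocyte markers (Aqp4, Gja1, Aldh1l1; r = −0.66) and the caudal ganglionic eminence markers (r = −0.68), and positively with the microglia markers (Cx3cr1, P2ry12, Csf1r; r = 0.50, or 0.34 and not called without the 2 mice under 100 CPM of Penk). Its most alike genes were Stk32c (r = 0.78), Cdk5r1 (r = 0.76), a neuronal activator of CDK5, and Chst1 (r = 0.76).

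**Figure D2:**
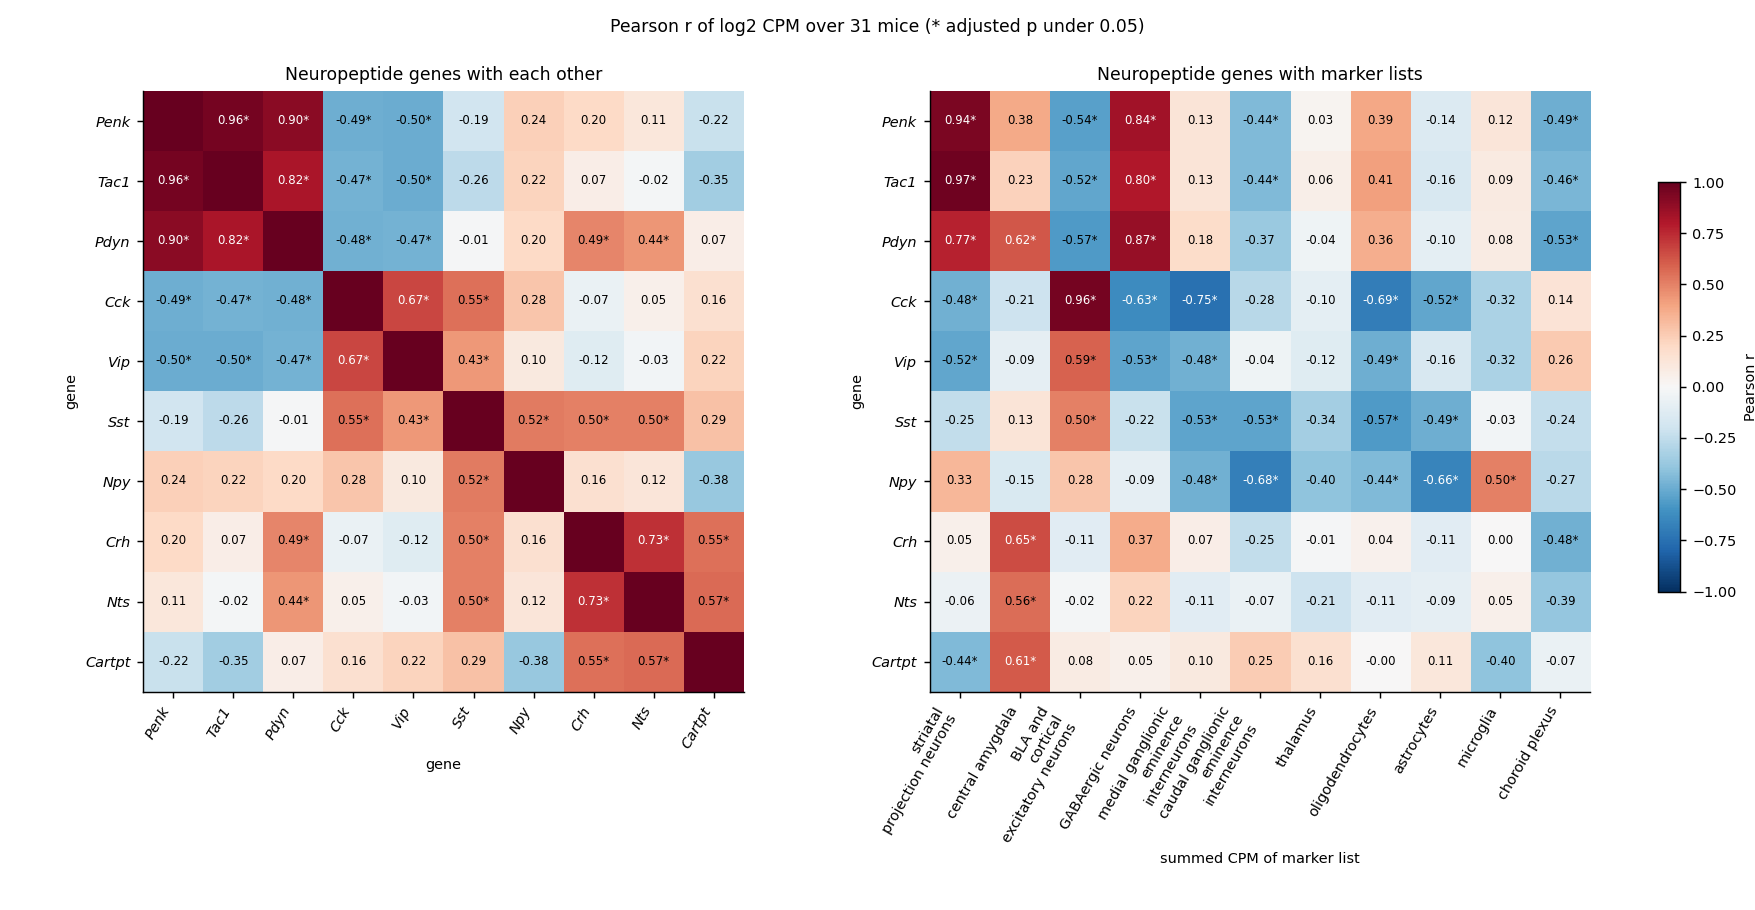
Pearson r of log2 CPM over the 31 mice, on the left for each pair of the 10 genes and on the right for each gene with the summed CPM of each of 11 marker lists, from red for positive to blue for negative, with an asterisk where the permutation adjusted p is under 0.05. The block of Penk, Tac1 and Pdyn, at r of 0.82 to 0.96, the block of Cck, Vip and Sst, and the block of Crh, Nts and Cartpt lie along the diagonal.

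In all, 41 of the 110 tests of a gene with a marker list passed, 14 positive and 27 negative, against 14% of the tests of all genes with a mean of at least 5 CPM at an absolute r of at least 0.44. The GABAergic neuron markers (Gad1, Gad2, Slc32a1) had an r of 0.87 with Pdyn, 0.84 with Penk and 0.80 with Tac1, and of −0.63 with Cck. The oligodendrocyte markers, among them Mbp, Mog and Mag, had an r of −0.69 with Cck, −0.57 with Sst, −0.49 with Vip and −0.44 with Npy. The choroid plexus markers (Ttr, Folr1, Kl) had r of −0.53 to −0.46 with Pdyn, Penk, Crh and Tac1, and the thalamus markers (Tcf7l2, Rora, Slc17a6) passed with none of the 10 over the 31 mice. Without the 2 mice under 100 CPM of Penk, 11 of the 41 calls were lost and 9 were gained. The 4 choroid plexus calls were among the lost, at r of −0.38 to −0.22, and the GABAergic markers had r = 0.63 with Pdyn, 0.56 with Penk and 0.45 with Tac1. The microglia markers were among the gained, with r of 0.55 to 0.56 with Penk, Pdyn and Tac1 and of −0.49 with Cck and Vip. The part of these cell types in the relations between peptides was not tested beyond the regression on the striatal markers.

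**Figure D3:**
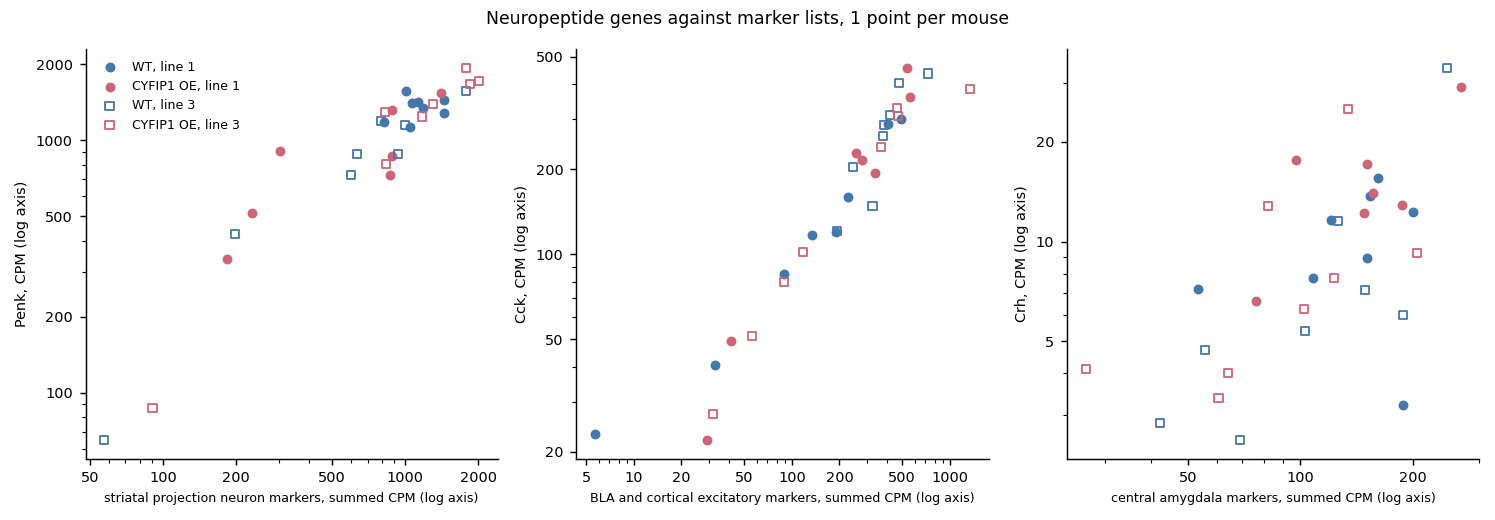
CPM of Penk, Cck and Crh per mouse against the summed CPM of the striatal, excitatory neuron and central amygdala markers, both on log axes, with colour for genotype and filled circles or open squares for the lines labelled 1 and 3. Each mouse is 1 point. Penk and Cck follow their markers over the whole range with r of 0.94 and 0.96, and Crh follows more loosely with r of 0.65.

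The genotype comparison asked whether CYFIP1 overexpression moved any of these peptides. Across both lines, 0 of the 10 genes passed an adjusted p of 0.05 and 0 reached p = 0.05 before adjustment in edgeR's quasi-likelihood test, against 0% and 4.30% of the 17428 genes. DESeq2 gave 0 and 0 as well. Penk had a lowest, median and highest value of 65.0, 1190 and 1570 CPM in WT and of 87.3, 1240 and 1930 CPM in CYFIP1 OE mice. Its log2 fold change was −0.04 (SE 0.31, 95% confidence interval −0.67 to 0.59). Cck had 23.0, 181 and 435.9 CPM in WT and 22.0, 215 and 456 CPM in CYFIP1 OE mice, a log2 fold change of 0.04 (interval −0.75 to 0.82). The ranges of WT and CYFIP1 OE mice overlapped for each of the 10 genes. The largest differences were those of Nts at 0.40 (SE 0.27, interval −0.15 to 0.95) and Crh at 0.34 (SE 0.29, interval −0.25 to 0.94). The intervals were narrowest for Sst (−0.18 to 0.44) and Npy (−0.27 to 0.36). The adjusted p was 0.999 for each of the 10, and the median log2 fold change was 0.13, against −0.01 over all genes.

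In the line labelled 1, 0 of the 10 genes passed an adjusted p of 0.05, against 0% of 17972 genes, and the smallest adjusted p was 0.806, that of Cartpt. At an unadjusted p under 0.05 there were 7, against 5.53% of genes. Of these 5 were higher (2.79% of genes) and 2 lower (2.73% of genes) in CYFIP1 OE mice. The 10 genes come from the same mice and several vary together. In this line r was 0.90 for Penk with Tac1 and 0.83 for Crh with Nts. The 7 are thus not independent, and their count cannot be set against the share of all genes as an excess. The higher ones included Cartpt, with a lowest, median and highest value of 1.77, 4.28 and 6.72 CPM in 8 WT mice and 1.14, 5.44 and 27.2 CPM in 7 CYFIP1 OE mice. The 3 highest values were all CYFIP1 OE and above every WT mouse, while the lowest was CYFIP1 OE too. The log2 fold change of Cartpt was 1.25 (SE 0.41, interval 0.39 to 2.11).

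Sst and Vip followed the same direction. Sst had 50.5, 87.2 and 108 CPM in WT and 88.1, 104 and 138 CPM in CYFIP1 OE mice of this line. Each of the 7 CYFIP1 OE mice lay above the WT median, and 4 WT mice lay below the lowest of them. The log2 fold change was 0.48 (SE 0.17, edgeR adjusted p = 0.855). Vip had 0.782, 3.48 and 5.03 CPM in WT and 1.01, 6.21 and 13.2 CPM in CYFIP1 OE mice, with 4 CYFIP1 OE mice above every WT mouse. Its log2 fold change was 0.94 (SE 0.45, edgeR adjusted p = 0.891). Crh (0.66, SE 0.29) and Nts (0.65, SE 0.31) were the others, with medians of 10.3 and 14 CPM for Crh and of 12.4 and 18.3 CPM for Nts in WT and CYFIP1 OE mice.

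Penk and Tac1 were the lower ones. Penk had 1130, 1370 and 1560 CPM in WT and 339, 866 and 1540 CPM in CYFIP1 OE mice, 5 of which lay below every WT mouse. The log2 fold change was −0.65 (SE 0.23, edgeR adjusted p = 0.834). Tac1 had 152, 187 and 208 CPM in WT and 49.2, 140 and 213 CPM in CYFIP1 OE mice, with 4 below every WT mouse and 1 above. Its log2 fold change was −0.59 (SE 0.25, edgeR adjusted p = 0.863). The WT mice were close together for both genes, with an SD of 143 CPM for Penk against 423 CPM in CYFIP1 OE mice. The remaining 3, Npy (−0.20), Cck (0.59) and Pdyn (−0.08), had intervals that included 0.

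The punches of the line labelled 1 differed alongside. The striatal markers Drd1, Adora2a, Gpr6, Pde10a and Rgs9 had log2 fold changes of −0.85 to −0.72 in CYFIP1 OE mice, 4 of them at an unadjusted p under 0.05 and 0 after adjustment. Their summed level ran from 820 to 1450 CPM in WT and from 184 to 1410 CPM in CYFIP1 OE mice. The 4 excitatory markers had log2 fold changes of 0.48 to 0.85 and the 3 central amygdala markers of 0.04 to 1.04. With the striatal and excitatory marker levels as covariates, which was added after seeing the data, 0 of the 10 reached an unadjusted p of 0.05, against 3.59% of genes, and the log2 fold changes lay between −0.18 and 0.52. Genotype is also nearly bound to age and name group in this line. The 8 WT mice came from 2 name groups (mice whose names share a prefix), and 4 of the 7 CYFIP1 OE mice were aged 77 days, when every WT mouse was aged 59 to 61 days. Without those 4 mice, 3 CYFIP1 OE mice were left and 1 of the 10 reached an unadjusted p of 0.05, against 3.48% of genes. The log2 fold changes were then −0.68 for Penk, 0.39 for Sst and 0.78 for Vip, near those with all mice of the line, and 0.50 for Cartpt, −0.39 for Tac1, 0.34 for Crh and −0.10 for Nts. That of Pdyn went from −0.08 to −0.49, and those of Npy and Cck were −0.22 and 0.42. The parts of punch content, age and name group in these differences cannot be told apart from that of genotype.

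In the line labelled 3, 0 of the 10 genes passed an adjusted p of 0.05 and 0 reached 0.05 before adjustment in edgeR, against 0% and 6.42% of 17324 genes. DESeq2 gave 0 and 0. Most of the log2 fold changes had the opposite sign to those in the line labelled 1. Penk had 65.0, 881 and 1570 CPM in WT and 87.3, 1340 and 1930 CPM in CYFIP1 OE mice, a log2 fold change of 0.52 (SE 0.49, interval −0.50 to 1.54). Tac1 had 19.5, 150 and 323 CPM in WT and 13.3, 212 and 338 CPM in CYFIP1 OE mice, a log2 fold change of 0.48 (interval −0.48 to 1.44). For Penk the lowest mouse of each genotype lay far under the rest of its group. Without these 2 mice the log2 fold changes of Penk and Tac1 were 0.51 and 0.49, and without the CYFIP1 OE mouse alone 0.73 and 0.67. With the striatal and excitatory marker levels as covariates, they were −0.21 and −0.29, the opposite sign (edgeR adjusted p = 0.74 and 0.548). Cartpt had 0.296, 4.14 and 15.1 CPM in WT and 0.595, 2.13 and 6.94 CPM in CYFIP1 OE mice, a log2 fold change of −0.85 (SE 0.52, interval −1.94 to 0.23). Vip had 1.93, 6.04 and 13.6 CPM in WT and 0.626, 3.03 and 8.48 CPM in CYFIP1 OE mice, a log2 fold change of −0.64 (interval −1.65 to 0.37). The same 5 striatal markers had log2 fold changes of 0.68 to 0.79 in this line, with 0 at an unadjusted p under 0.05, so they too ran opposite to the line labelled 1.

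The difference between the lines was tested as an interaction. For 0 of the 10 genes did it pass an adjusted p of 0.05, against 0% of 17428 genes, and the smallest adjusted p was 0.535. At an unadjusted p under 0.05 there were 4, Cartpt, Sst, Vip and Penk, against 8.10% of genes. These come from the same mice too, so the 4 are not independent. The log2 fold change in the line labelled 3 minus that in the line labelled 1 was −2.12 for Cartpt (SE 0.69), −1.63 for Vip (SE 0.71), −0.66 for Sst (SE 0.28) and 1.17 for Penk (SE 0.57). DESeq2 gave 3 in place of 4. For the same 5 striatal markers this difference was 1.43 to 1.59.

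**Figure D4:**
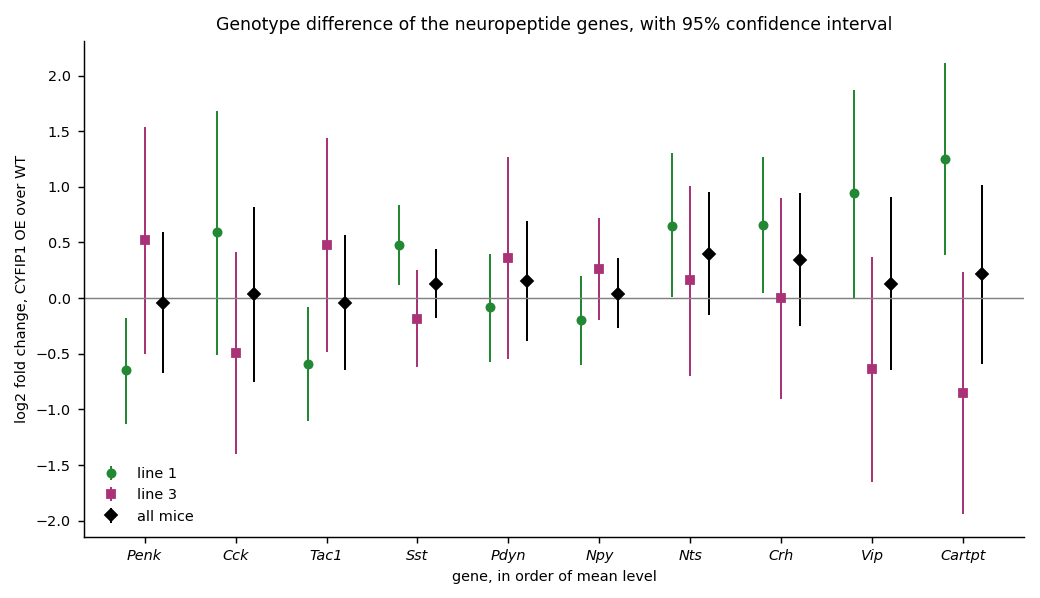
Log2 fold change of CYFIP1 OE over WT for each gene in the line labelled 1 (circles), the line labelled 3 (squares) and all mice (diamonds), with 95% confidence intervals from edgeR. Cartpt is at 1.25 in the line labelled 1 and −0.85 in the line labelled 3, Penk at −0.65 and 0.52, and the values over all mice lie between −0.04 and 0.40.

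Sex and line were compared in the same fit. For sex, 0 of the 10 genes passed an adjusted p of 0.05, against 0.0631% of genes, and 2 had an unadjusted p under 0.05, against 4.62% of genes. Cartpt had a lowest, median and highest value of 1.41, 5.92 and 27.2 CPM in 15 males and 0.296, 2.66 and 13.8 CPM in 16 females, a log2 difference of 1.30 of males over females (SE 0.38, edgeR adjusted p = 0.97). The median was higher in males in each line, 6.42 against 3.57 CPM in the line labelled 1 and 4.35 against 1.97 CPM in the line labelled 3. Crh had 4.12, 9.21 and 33.4 CPM in males and 2.52, 7.48 and 17.6 CPM in females, a log2 difference of 0.71 (SE 0.30, edgeR adjusted p = 0.97). The central amygdala markers were also higher in males in this fit, and none passed an adjusted p of 0.05. Their summed level had a lowest, median and highest value of 26.7, 151 and 268 CPM in males and 42.2, 111 and 188 CPM in females. Prkcd was higher in males by 1.49 on the log2 scale (SE 0.38, edgeR unadjusted p = 0.000411, adjusted p = 0.478) and Tac2 by 1.36 (SE 0.43, unadjusted p = 0.00347, adjusted p = 0.97). Wfs1, which had the highest median level of these markers (109 CPM), was higher by 0.31 (SE 0.22, edgeR unadjusted p = 0.165). The thalamus markers were higher in males too, Tcf7l2 by 0.54, Slc17a6 by 0.43 and Rora by 0.28 (edgeR unadjusted p = 0.0242, 0.253 and 0.04). The part of the central amygdala and thalamus markers in the sex differences of Cartpt and Crh was not tested. For Crh the medians of males and females were 12.3 and 12.5 CPM in the line labelled 1 and 8.16 and 4.37 CPM in the line labelled 3. Between the lines, 0 of the 10 passed (0% of genes) and 1 had an unadjusted p under 0.05 (3.31% of genes). That was Cartpt, with a median of 5.44 CPM in the line labelled 1 and 2.65 CPM in the line labelled 3 and a log2 difference of −0.98 of line 3 over line 1 (SE 0.40, edgeR adjusted p = 1).

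The receptors, the processing machinery and other neuropeptides were read from fixed lists in the fit over all mice, in which 0 of 38 genes tested passed an adjusted p of 0.05 and 3 had an unadjusted p under 0.05, against 0% and 4.30% of all genes. Of 21 receptor genes 18 were tested, with a median log2 fold change of 0.06, and of the 3 it held Ntsr2, a neurotensin receptor of astrocytes, at 35.4 ± 4.55 CPM (SD, n = 16) in WT and 43.9 ± 14.2 CPM (SD, n = 15) in CYFIP1 OE mice (log2 fold change 0.31, SE 0.12, edgeR adjusted p = 0.999). Of 12 genes for peptide processing and dense-core granules 12 were tested, with a median of 0.07. Of the 3, this list held Pam, which amidates the C-terminus of many of these peptides, at 68.1 ± 11.4 CPM (SD, n = 16) in WT and 80.5 ± 14 CPM (SD, n = 15) in CYFIP1 OE mice (log2 fold change 0.24, SE 0.09, edgeR adjusted p = 0.999). Of 16 other neuropeptides 8 were tested, with a median of 0.43 and values from −0.54 to 0.96.

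Pnoc, the precursor of nociceptin, was the last of the 3. Its lowest, median and highest values were 0.332, 1.34 and 2.71 CPM in WT and 1.26, 4.36 and 12.8 CPM in CYFIP1 OE mice of the line labelled 1, with 5 of 7 CYFIP1 OE mice above every WT mouse. In the line labelled 3 they were 0.689, 2.96 and 10.7 CPM in WT and 1.71, 3.35 and 6.63 CPM in CYFIP1 OE mice, which overlapped throughout. The log2 fold change of Pnoc was 0.85 over all mice (SE 0.36, edgeR adjusted p = 0.999). It was 2.09 in the line labelled 1 (SE 0.41, edgeR adjusted p = 0.353) and −0.22 in the line labelled 3 (SE 0.41, edgeR adjusted p = 0.947). The interaction of −2.30 (SE 0.59) had an edgeR adjusted p of 0.505. In the line labelled 1 the parts of age, name group and punch content cannot be told apart from that of genotype for Pnoc either. Pnoc had few reads, at most 105 in a mouse. It was also higher in males, by 0.92 on the log2 scale (SE 0.35, edgeR unadjusted p = 0.0122, adjusted p = 0.97).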

How the data were processed

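QuantSeq reads had been aligned by the authors to GRCm38 (STAR) and Salmon gave the expected counts, deposited for each mouse without normalization or filtering, with 48709 Ensembl identifiers, of which 48349 were named by the GENCODE annotation of GRCm38. The deposited expected counts were rounded to whole numbers. The filter kept genes that reached 10 reads in 20% or more of the animals, which were tested with edgeR 4.0.16 in R 4.3.3 (TMM, quasi-likelihood F test, Benjamini-Hochberg adjustment over all genes tested), with sex, line and genotype as terms, or sex and genotype within a line. The authors' 5 sequencing principal components were not used here. Standard errors and confidence intervals come from the fit. CPM are TMM-scaled, and correlations used log2 CPM with a prior count of 2, two-sided permutation with 100000 resamples and adjustment over 45 pairs or 110 gene and list tests. A Z-score under −2 of sample connectivity marks a mouse unlike the rest.

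The 10 genes and the lists were chosen with earlier results of these data known. The rule for genes named besides them took, for each of the 10, the 3 genes with the highest r, the genes of the receptor, processing and neuropeptide lists with an unadjusted p under 0.05 over all mice, the markers a paragraph turns on, and Cyfip1. Some genes that this rule or the marker lists hold are not reported here, although the summed levels include them. Alternatives were DESeq2 1.42.0, relative log expression factors, no filter, sva 3.50.0, other covariates and subsets of mice. Steps were tested on simulated data.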

Additional observations from a re-analysis of the deposited data

Results flagged for a closer look

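Each of the 10 genes was screened in the 4 groups of genotype and line for a mouse far from its group on the log2 scale, by its gap to the nearest mouse over the range of the group. Of the 40 groups 6 held such a mouse, when chance gives about 1 in 20 for a single group. The 10 genes come from the same mice and several vary together, so the 40 screens are not independent and their count cannot be set against that rate. The CYFIP1 OE male of the line labelled 3 with the Z-score of −4.74 was lowest for Penk (0.717 of the range, 87.3 CPM against 803 CPM in the next mouse), for Pdyn (0.738, 6.99 against 51.6 CPM) and for Tac1 (0.710, 13.3 against 133 CPM). A WT female of the same line and name group was lowest for Penk (0.589, 65.0 against 424.5 CPM). These 2 mice also had the highest summed excitatory markers of the 31, at 1340 and 724 CPM, the lowest summed striatal markers, at 90.5 and 57.2 CPM, and summed choroid plexus markers of 4690 and 8310 CPM. In the line labelled 1, a WT female was lowest for Vip (0.558, 0.782 against 2.32 CPM) and another WT female was lowest for Pdyn (0.742, 57.2 against 89.9 CPM). The part of punch content in these values was not tested.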

How the results depend on the processing

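The counts of genes called for genotype, sex and line stayed at 0 of 10 under DESeq2, relative log expression factors, no filter on low counts and each other fit that was run, and the order of levels kept 5 to 6 of 9 resolved neighbours. The signs of small differences did not hold. For genotype over all mice, 5 surrogate variables gave log2 fold changes of −0.02 for Sst, −0.17 for Npy, −0.15 for Vip and −0.37 for Cck. Age as a covariate gave −0.01 for Vip, −0.10 for Cck, −0.31 for Cartpt, 0.13 for Penk and 0.19 for Tac1. Leaving out the mice aged 77 days gave −0.00 for Vip, −0.09 for Cck, −0.35 for Cartpt, 0.13 for Penk and 0.20 for Tac1, and −0.10 for Nts within the line labelled 1. The 18 mice of the 5 name groups with both genotypes, with the name group as a block, gave −0.06 for Sst, −0.52 for Vip, −0.43 for Cck, −0.18 for Pdyn, −0.17 for Crh and −0.09 for Cartpt. Of these 18 mice, 16 were of the line labelled 3. That fit thus mostly compares the genotypes within that line, and a change of sign there cannot be laid to the block. Leaving out the mouse with a Z-score under −2 gave −0.01 for Npy, −0.05 for Cck, 0.06 for Penk and 0.05 for Tac1, 0.14 for Crh within the line labelled 3, and −0.07 for Cck between the sexes. It could not change the line labelled 1, which does not hold that mouse. Of the alternatives chosen after seeing the data, leaving out the 2 mice under 100 CPM of Penk gave −0.07 for Npy, and 0.05 for Crh within the line labelled 3. The striatal and excitatory marker levels as covariates gave −0.14 for Vip, −0.13 for Cck and 0.04 for Penk over all mice. In the line labelled 1 they gave 0.01 for Npy, −0.04 for Cck, 0.14 for Pdyn, 0.02 for Tac1 and −0.18 for Cartpt, and in the line labelled 3 −0.21 for Penk, −0.22 for Pdyn and −0.29 for Tac1. The cause was not tested.

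Of 45 pairs of genes, 9 passed within line 1, 5 within line 3, 4 in WT and 9 in CYFIP1 OE mice alone, against 20 over all mice, and of 110 gene and marker list tests 11, 13, 15 and 24 passed, against 41. These subsets hold 15 or 16 mice. In CYFIP1 OE mice Sst with Npy had r = −0.04, and in the line labelled 1 the caudal ganglionic eminence markers had r = 0.19 with Penk and 0.05 with Tac1. With Spearman's rho the 20 pairs and 4 others passed, and without the 2 mice under 100 CPM of Penk 17 of the 20 and 2 others. After sex, line and genotype had been regressed out, 18 of the 20 passed and no others. Beside the block by name group, no paired analysis was possible because the labels give no replicate numbers that the genotypes share. Depth limits the lowest values of Vip and Cartpt. For Penk and Cck the intervals were wide at high read counts, with a biological coefficient of variation of 56.4% and 70.4%.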
